A study of Mus musculus with 9 samples.

Results

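Klf1, Zfpm1, Tal1, Lmo2, Ldb1, Nfe2, Gfi1b, Bcl11a, Cbfa2t3 and E2f2 encode regulators of erythroid genes and proteins that work beside GATA1. The 10 genes were taken by symbol from a table of 27999 rows of raw read counts, and all 10 were tested among 9978 genes. The libraries came from G1E cells, a mouse erythroid progenitor line derived from embryonic stem cells with a disrupted Gata1 gene, so that all groups share the loss of mouse GATA1. The cells grew in medium with murine stem cell factor (SCF) and erythropoietin (EPO) and were spin-infected with virus from 293T cells, a human packaging line. The virus carried the HMD vector alone, HMD with human wildtype GATA1, or HMD with a human GATA1 mutant, and each group had 3 libraries of total RNA. The sources used here do not give the mutation, the time from infection to lysis, any selection of infected cells or the cultures behind the replicates. G1E is 1 cell line, so p-values measure only the spread between these libraries.

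GATA1 binds DNA through zinc fingers and acts in assemblies with other proteins. One partner is FOG1, the product of Zfpm1, which binds a GATA1 zinc finger directly. Another is the complex of the helix-loop-helix protein TAL1 with its E protein partner, the bridging protein LMO2 and LDB1, which joins distant DNA elements by self-association, and to which the corepressor ETO2 (Cbfa2t3) can bind. KLF1 binds CACCC elements of globin and other red cell genes, the p45 subunit NFE2 pairs with small Maf proteins, GFI1B and BCL11A are repressors, and E2F2 is a cell cycle factor of maturing erythroblasts.

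Library totals ranged from 11364358 to 17289307 counts. Human GATA1 RNA stood at 653, 706 and 598 CPM (reads scaled to equal library totals) in mutant replicates 1, 2 and 3, and at 816, 715 and 921 CPM in wildtype replicates 1, 2 and 3. The empty vector libraries held 0, 2 and 0 counts of it, and the mouse Gata1 row was not called in any comparison. Every wildtype library held more human GATA1 RNA than every mutant library. The form of GATA1 and the amount of its RNA thus differed together between these groups, and their separate parts were not tested. The 7 erythroid markers found in the table summed to 364 to 418 CPM in empty vector libraries, 1457 to 1530 in mutant libraries and 15693 to 27230 in wildtype libraries. Of 10 megakaryocyte markers, Gp1bb and Vwf had no count, and the sums were 64.1 to 69.9, 46.7 to 52.3 and 30.8 to 36.0 CPM in the same order. Of 8 mast cell markers, Mcpt8 and Tpsb2 had no count, and the sums were 112 to 149, 76.5 to 84.2 and 28.7 to 35.0 CPM. The summed granulocyte and monocyte markers (Elane without a count) stayed at or under 13.6 CPM in every library. The part of other cell types in the results was not tested.

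Wildtype GATA1 raised 4 of the 10 regulators: Klf1, E2f2, Ldb1 and Tal1. The wildtype mean was 2.52 times the empty vector mean for E2f2, 2.36 times for Klf1, 1.94 times for Ldb1 and 1.26 times for Tal1, which only just passed. None of the 10 was called lower. Cbfa2t3 had a negative value (-0.29 on the log2 scale) and was called lower only when empty vector replicate 1 was left out. Among all tested genes 11.4% were called higher and 11.9% lower by the same rule, an adjusted p under 0.05 in edgeR's quasi-likelihood test. The wildtype libraries lay wholly above the empty vector libraries for 5 of the 10 regulators, against 15.3% of all genes, and wholly below for 0, against 17.3%. At an unadjusted p under 0.05 there were 5 of 10, against 36.5% of all genes. The median log2 fold change was 0.27 over the 10 regulators and -0.04 over all tested genes. In bulk libraries, a larger share of cells with an RNA and more of that RNA per cell cannot be told apart.

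The mutant placed no regulator past the threshold against the empty vector, in edgeR or in DESeq2. Of all tested genes 0.210% were called higher and 0.0601% lower in edgeR. At an unadjusted p under 0.05, 7 of the 10 regulators differed in edgeR, against 12.9% of all tested genes: Tal1, Klf1, E2f2, Cbfa2t3, Ldb1 and Gfi1b had positive values and Lmo2 a negative one. Mutant libraries lay wholly above the empty vector libraries for Klf1, Tal1, Ldb1, Cbfa2t3 and E2f2, that is 5 of 10 against 8.19% of all genes, and wholly below for none of the 10, against 6.85%. Without empty vector replicate 3, 3 regulators were called higher (Klf1, Tal1 and Cbfa2t3) and 1 lower (Lmo2), while calls over all genes rose to 227 higher and 610 lower. Each of these regulators was called in that 1 of 20 alternatives only. This comparison shares its empty vector libraries with the wildtype comparison.

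Between the 2 forms of GATA1, 4 regulators were lower with the mutant (Klf1, E2f2, Ldb1 and Lmo2) and 1 was higher (Cbfa2t3). The background was 12.7% of tested genes called lower (1267) and 13.2% called higher (1313). With mutant and wildtype paired by replicate number, 4 regulators were lower and 1 higher, while the calls over all genes rose to 2417 lower and 2323 higher. That pairing was inferred from these same counts, and the paired fit was added after they were seen. Pairs chosen because they deviate together lower the spread in the paired fit for that reason. Its calls are therefore not separate support. The mutant libraries lay wholly below the wildtype libraries for those 4 genes, against 20.9% of all genes. They lay wholly above for Cbfa2t3 and Zfpm1, against 23.3%. At an unadjusted p under 0.05 there were the same 5 of 10 regulators, against 39.1% of all genes.

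**Figure D1:**
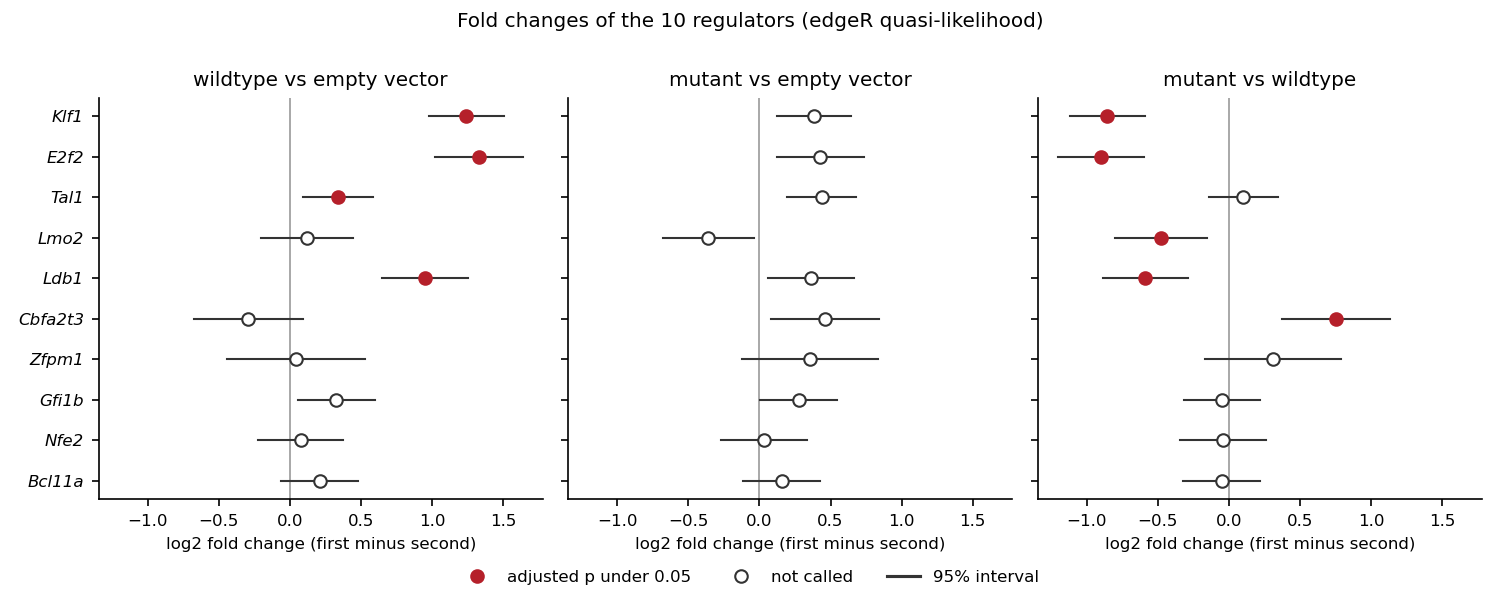
Log2 fold change (x axis) of each of the 10 regulators (rows) in 3 comparisons (panels), first group minus second; bars are 95% intervals from edgeR and filled points passed an adjusted p under 0.05. Klf1, E2f2 and Ldb1 were called higher with wildtype than with empty vector and lower with mutant than with wildtype, and no point was filled for mutant against empty vector.

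Klf1, the CACCC-binding activator of adult beta-globin and of other red cell genes, lies on chromosome 8 (GRCm38, 84901928 to 84905291, plus strand). In CPM scaled by TMM factors, the unit of all levels that follow, it stood at 235.0, 253.9 and 291.3 in empty vector replicates 1, 2 and 3, at 356.5, 348.9 and 313.4 with the mutant, and at 660.4, 630.8 and 552.3 with the wildtype. The 3 groups did not overlap: every mutant library was above every empty vector library and below every wildtype library. The group means were 260.1 ± 28.7, 339.6 ± 23.0 and 614.5 ± 55.9 CPM (SD, n = 3). Wildtype was 2.36-fold above empty vector, a log2 fold change of 1.24 ± 0.12 (SE) with an adjusted p of 1.098e-05 in edgeR. Mutant differed from wildtype by a log2 fold change of -0.86 ± 0.12 (adjusted p = 0.000263, edgeR). Mutant against empty vector gave 0.39 with a 95% interval of 0.12 to 0.65 and an adjusted p of 0.304 in edgeR. The adjusted p was 0.0414 without empty vector replicate 3, the only 1 of 20 alternatives that called it.

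E2f2, an E2F family member of maturing erythroblasts, lies on chromosome 4 (136172394 to 136196057, plus strand). It measured 23.0, 30.8 and 28.3 CPM in the empty vector libraries, 36.2, 36.8 and 37.7 in the mutant libraries and 76.6, 60.2 and 69.9 in the wildtype libraries. Its 3 groups fell in the same order as those of Klf1, with no overlap between any of the groups. The wildtype mean was 2.52 times the empty vector mean, and the log2 fold change was 1.33 ± 0.14 (adjusted p = 2.225e-05, edgeR). The mutant was lower than the wildtype by a log2 fold change of -0.90 ± 0.14 (adjusted p = 0.000528, edgeR). Against the empty vector the mutant gave 0.43 (95% interval 0.12 to 0.73, adjusted p = 0.326, edgeR).

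**Figure D2:**
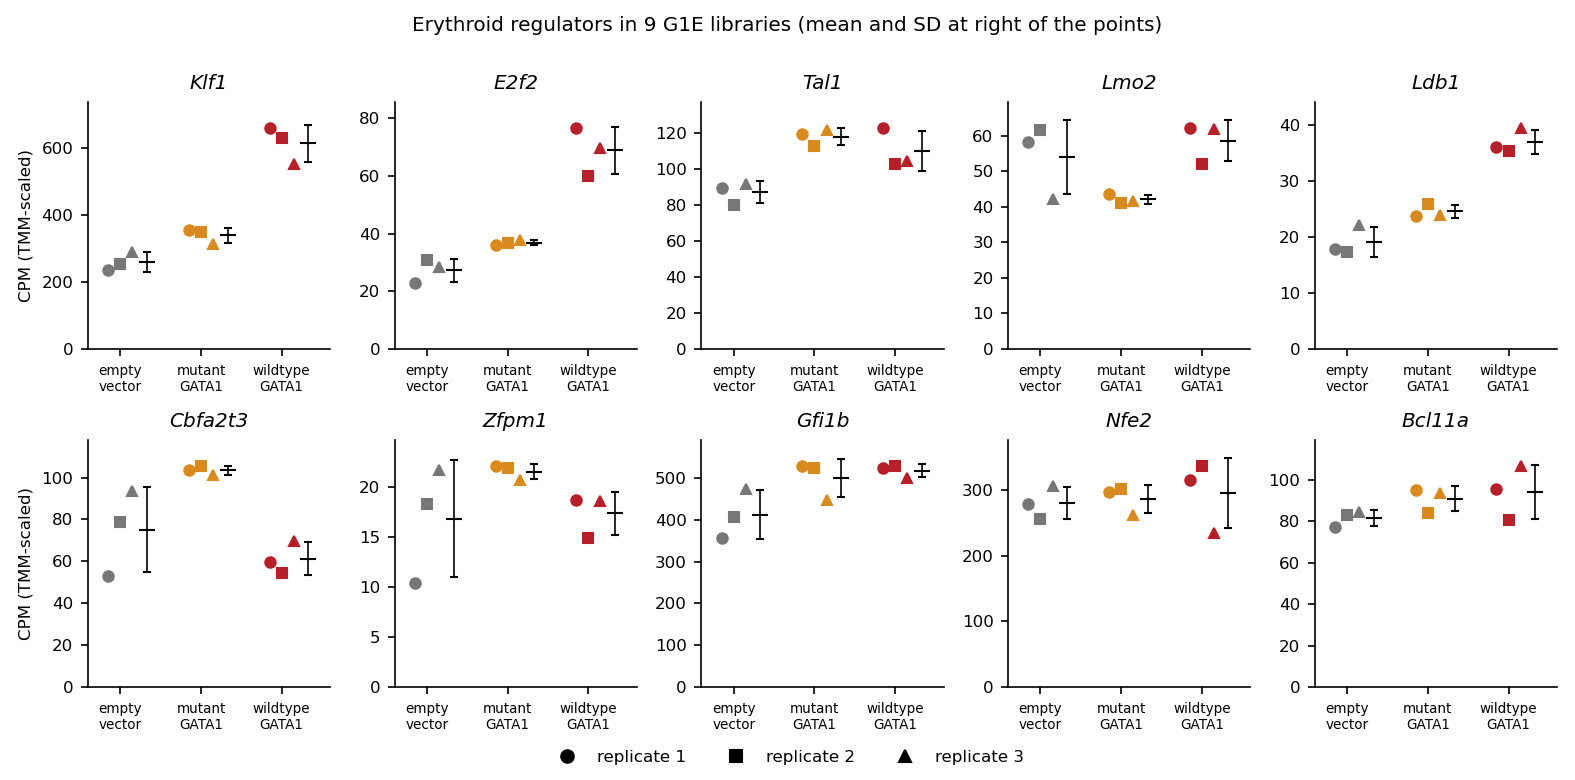
TMM-scaled CPM (y axis, each panel from 0) of the 10 regulators in each of the 9 libraries; symbols mark the replicate number, and the bar at the right of each group is its mean ± SD. Klf1, E2f2 and Ldb1 step up from empty vector to mutant to wildtype with no overlap, while the wildtype libraries of Cbfa2t3 lie below all mutant libraries.

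Of the genes of the TAL1 complex, Ldb1 and, only just, Tal1 were called higher with wildtype GATA1. Lmo2 and Cbfa2t3 were not called in that comparison. Ldb1 encodes the self-associating scaffold (chromosome 19, 46031570 to 46045214, minus strand). Its levels were 17.8, 17.3 and 22.2 CPM in the empty vector libraries, 23.8, 25.9 and 24.0 in the mutant libraries and 36.1, 35.4 and 39.4 in the wildtype libraries. All wildtype libraries were above all mutant libraries, which were above all empty vector libraries. Wildtype exceeded empty vector by a log2 fold change of 0.95 ± 0.14 (adjusted p = 0.000297, edgeR), a ratio of means of 1.94. The mutant was below the wildtype by -0.59 ± 0.14 on the log2 scale (adjusted p = 0.00802, edgeR), and gave 0.36 against the empty vector (95% interval 0.06 to 0.66, adjusted p = 0.355). Ldb1 shares 177 of its 4606 exon bases with Pprc1 on the opposite strand, and the libraries keep no strand. Pprc1 averaged 137 CPM in the empty vector group, 179 CPM in the mutant group and 119 CPM in the wildtype group, and its log2 fold change was 0.39 for mutant against empty vector, near the 0.36 of Ldb1. Its other values were -0.20 for wildtype against empty vector and 0.59 for mutant against wildtype, opposite in sign to those of Ldb1. The part of Pprc1 reads in the Ldb1 values was not tested.

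Tal1, the helix-loop-helix subunit (chromosome 4, 115056426 to 115071755, plus strand), stood at 89.7, 80.4 and 91.8 CPM in the empty vector libraries, 119.8, 112.6 and 121.9 in the mutant libraries and 122.8, 102.9 and 104.5 in the wildtype libraries. Both GATA1 groups lay wholly above the empty vector and overlapped each other. The wildtype value was 0.34 ± 0.11 on the log2 scale, with an adjusted p of 0.0495 in edgeR. That call was lost when empty vector replicate 1 or 2 (0.0599, 0.216), wildtype replicate 1 or 2 (0.180, 0.0577) or any mutant replicate was left out (0.0673 to 0.0837), and in 14 of 20 alternatives in all. The mutant value was 0.44 ± 0.11 with an adjusted p of 0.196 (edgeR), and 0.0400 without empty vector replicate 3, the only alternative that called it. Before adjustment, which was made within each comparison, the edgeR p was 0.0115 for wildtype and 0.00208 for mutant against empty vector. Mutant and wildtype differed by 0.10 (95% interval -0.14 to 0.35, adjusted p = 0.540, edgeR).

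Lmo2, the bridging subunit (chromosome 2, 103957986 to 103981878, plus strand), was the only one of the 10 with a negative value for mutant against empty vector. It measured 58.1, 61.6 and 42.2 CPM in the empty vector libraries, 43.5, 41.2 and 41.5 in the mutant libraries and 62.1, 52.0 and 61.8 in the wildtype libraries. The mutant libraries lay below all wildtype libraries, and empty vector replicate 3 lay among the mutant libraries. Mutant against wildtype gave a log2 fold change of -0.48 ± 0.15 (adjusted p = 0.0322, edgeR). That call was lost without mutant replicate 1, 2 or 3 (0.0732, 0.103, 0.0793) and without wildtype replicate 1 or 3 (0.0955, 0.0581). In all, the call was lost in 9 of 20 alternatives, including offsets for GC content and gene length and the sum of mutant replicates 1 and 2. With mutant and wildtype paired by replicate number, an alternative added after the data were seen, the adjusted p was 0.000519 (edgeR). The pairs were chosen from these same counts, so this value is not separate support. Wildtype against empty vector gave 0.12 (95% interval -0.20 to 0.44, adjusted p = 0.590, edgeR), and mutant against empty vector -0.36 (-0.68 to -0.04, adjusted p = 0.364).

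Cbfa2t3, which encodes the corepressor ETO2 (chromosome 8, 122625141 to 122699109, minus strand), went the other way from Klf1 and Ldb1 between the 2 forms of GATA1. It measured 53.2, 78.7 and 93.5 CPM in the empty vector libraries, 103.8, 105.4 and 101.2 in the mutant libraries and 59.9, 54.4 and 69.8 in the wildtype libraries. Every mutant library was above every other library, while the wildtype libraries lay within the wide range of the empty vector. Mutant exceeded wildtype 1.69-fold, a log2 fold change of 0.75 ± 0.18 (adjusted p = 0.00824, edgeR). The call remained in each of 20 alternatives, with adjusted p-values up to 0.0400, but the value fell to 0.43 with offsets for GC content and gene length. Wildtype against empty vector gave -0.29 (95% interval -0.67 to 0.09, adjusted p = 0.255, edgeR), which depended on the empty vector library left out: -0.49 without replicate 1, where it was called lower (adjusted p = 0.0210), and -0.11 without replicate 3 (adjusted p = 0.672). Mutant against empty vector gave 0.46 (0.08 to 0.84, adjusted p = 0.355, edgeR), and was called only without empty vector replicate 3 (adjusted p = 0.0368). Cbfa2t3 shares 295 of its 8373 exon bases with the antisense gene Gm10612, which averaged 0.227, 0.677 and 1.48 CPM in the empty vector, mutant and wildtype groups.

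Set against its partners in CPM per kb of exon, Cbfa2t3 had its lowest mean ratios in the wildtype group. The Cbfa2t3 to Ldb1 ratio was 1.64, 2.51 and 2.32 in empty vector replicates 1, 2 and 3, 2.40, 2.24 and 2.32 with the mutant, and 0.914, 0.845 and 0.974 with the wildtype. All wildtype libraries thus lay below all others. The Cbfa2t3 to Tal1 ratio was 0.310, 0.512 and 0.533 in the empty vector libraries, 0.453, 0.489 and 0.434 in the mutant libraries and 0.255, 0.276 and 0.349 in the wildtype libraries. Here wildtype replicate 3 lay above empty vector replicate 1, and the mutant libraries lay above all wildtype libraries. These ratios were chosen after the values were seen and were not tested.

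**Figure D3:**
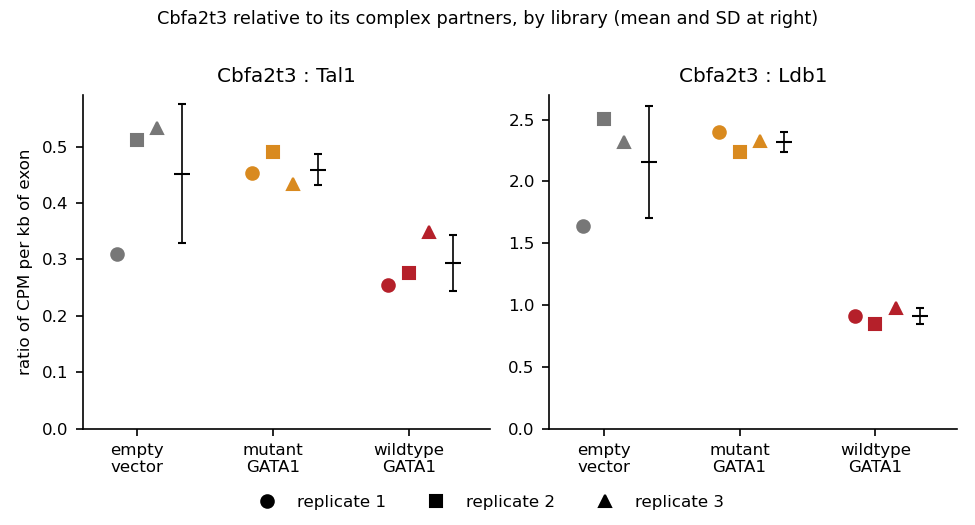
Ratio of Cbfa2t3 to Tal1 (left) and to Ldb1 (right) in CPM per kb of exon, by library, with mean ± SD at the right of each group. The ratio to Ldb1 averaged 2.16 ± 0.455 with the empty vector, 2.32 ± 0.0821 with the mutant and 0.911 ± 0.0648 with the wildtype (n = 3).

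Zfpm1, the gene of the direct GATA1 partner FOG1 (chromosome 8, 122282141 to 122337251, plus strand), was low and was not called in any comparison. It measured 10.3, 18.3 and 21.7 CPM in the empty vector libraries, 22.0, 21.8 and 20.6 in the mutant libraries and 18.6, 14.8 and 18.5 in the wildtype libraries. The mutant libraries lay above all wildtype libraries, and the empty vector libraries spanned the wildtype range. Mutant against wildtype gave 0.31 (95% interval -0.17 to 0.79, adjusted p = 0.327, edgeR). Wildtype against empty vector gave 0.05 (-0.44 to 0.53, adjusted p = 0.907), and mutant against empty vector 0.35 (-0.12 to 0.83, adjusted p = 0.488). The last value was 0.10 without empty vector replicate 1 and 0.58 without replicate 3.

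Gfi1b encodes a zinc finger repressor that recruits the histone demethylase LSD1 (chromosome 2, 28609450 to 28621982, minus strand). It stood at 356.2, 407.2 and 472.5 CPM in the empty vector libraries, 526.9, 523.1 and 446.3 in the mutant libraries and 522.8, 527.6 and 499.2 in the wildtype libraries. The wildtype libraries lay above all empty vector libraries, whereas mutant replicate 3 lay below empty vector replicate 3. Wildtype against empty vector gave 0.33 (95% interval 0.06 to 0.60) with an adjusted p of 0.0772 in edgeR, which was 0.0252 without empty vector replicate 3; DESeq2 also called it. With offsets for GC content and gene length the value was 0.15 (adjusted p = 0.216). The mutant gave 0.28 (0.01 to 0.54, adjusted p = 0.385) against the empty vector and -0.05 (-0.32 to 0.22, adjusted p = 0.795) against the wildtype.

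Bcl11a encodes a repressor of embryonic and fetal globin genes (chromosome 11, 24078056 to 24174123, plus strand). It measured 77.3, 83.1 and 84.4 CPM in the empty vector libraries, 95.1, 83.9 and 93.7 in the mutant libraries and 95.7, 80.5 and 106.7 in the wildtype libraries. All 3 groups overlapped. Wildtype against empty vector gave 0.21 (95% interval -0.06 to 0.48, adjusted p = 0.248, edgeR), mutant against empty vector 0.16 (-0.11 to 0.42, adjusted p = 0.576) and mutant against wildtype -0.05 (-0.32 to 0.22, adjusted p = 0.784). With offsets for GC content and gene length, wildtype was called higher than empty vector at 0.36 (adjusted p = 0.00328) and mutant lower than wildtype at -0.26 (adjusted p = 0.0233).

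Nfe2 encodes the p45 subunit of the globin regulator NF-E2 (chromosome 15, 103248212 to 103258403, minus strand). It measured 278.8, 256.4 and 305.9 CPM in the empty vector libraries, 297.0, 301.6 and 262.3 in the mutant libraries and 314.7, 336.4 and 235.1 in the wildtype libraries. The groups overlapped, and wildtype replicate 3 was the lowest of all 9 libraries. Wildtype against empty vector gave 0.08 (95% interval -0.23 to 0.38, adjusted p = 0.728, edgeR), mutant against empty vector 0.03 (-0.27 to 0.33, adjusted p = 0.931) and mutant against wildtype -0.04 (-0.34 to 0.26, adjusted p = 0.850).

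Between genes, levels in CPM per kb of exon spanned from 225 for Gfi1b to 4.14 for Ldb1 with the empty vector. In that group the order was Gfi1b (225 ± 31.9), Klf1 (170 ± 18.7), Nfe2 (93.8 ± 8.29), Lmo2 (24.9 ± 4.78), Tal1 (19.9 ± 1.39), Cbfa2t3 (8.97 ± 2.44), Bcl11a (6.19 ± 0.283), E2f2 (5.61 ± 0.815), Zfpm1 (4.79 ± 1.66) and Ldb1 (4.14 ± 0.587; SD, n = 3). The libraries of Lmo2 and Tal1 overlapped, as did those of each neighbouring pair from Cbfa2t3 down to Ldb1, so these places in the order are not separated. With the wildtype, Klf1 came first at 402 ± 36.5 CPM per kb, ahead of Gfi1b at 282 ± 8.30. E2f2 stood sixth in the wildtype libraries at 14.1 ± 1.70 CPM per kb, and Ldb1 stood at 8.03 ± 0.465, where its libraries overlapped those of Cbfa2t3 (7.33 ± 0.932) and Bcl11a (7.16 ± 0.999). With the mutant, Gfi1b (273 ± 24.9), Klf1 (222 ± 15.0) and Nfe2 (96.0 ± 7.19) kept the first 3 places, and Tal1 (27.0 ± 1.11) stood above Lmo2 (19.4 ± 0.579).

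Promoter sequence was available from RefSeq (GRCm38.p6) for 8 of the 10 regulators, in windows from 250 bases before to 50 bases after the transcript start; Lmo2 and Nfe2 were not matched. The stretches of the 4 genes with a call that remained in all 20 alternatives are printed 5′ to 3′ on the gene's strand, up to the more upstream of the RefSeq and GENCODE starts. Capitals mark matches on either strand to the GATA motifs AGATAA and AGATAG and the GATA motifs TGATAA and TGATAG, to the E-box CAGATG, to the KLF1 element CACCC and to the E2F motifs TTTCCCGC and TTTGGCGC.
Klf1, chr8:84901732-84901927, plus strand: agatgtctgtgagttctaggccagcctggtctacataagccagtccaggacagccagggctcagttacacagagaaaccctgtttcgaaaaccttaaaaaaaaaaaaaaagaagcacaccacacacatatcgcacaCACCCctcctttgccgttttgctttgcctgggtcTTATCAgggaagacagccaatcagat
E2f2, chr4:136172024-136172273, plus strand: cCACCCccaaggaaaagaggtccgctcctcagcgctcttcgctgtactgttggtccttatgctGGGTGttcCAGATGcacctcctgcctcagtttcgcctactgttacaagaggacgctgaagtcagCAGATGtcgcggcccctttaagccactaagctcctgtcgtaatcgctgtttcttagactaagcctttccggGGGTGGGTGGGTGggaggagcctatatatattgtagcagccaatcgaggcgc
Ldb1, chr19:46045312-46045561, minus strand: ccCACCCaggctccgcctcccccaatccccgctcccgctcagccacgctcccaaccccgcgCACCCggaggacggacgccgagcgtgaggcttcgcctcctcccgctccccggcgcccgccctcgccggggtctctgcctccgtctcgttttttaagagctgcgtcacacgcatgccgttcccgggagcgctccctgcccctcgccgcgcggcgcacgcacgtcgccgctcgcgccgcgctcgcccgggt
Cbfa2t3, chr8:122699110-122699359, minus strand: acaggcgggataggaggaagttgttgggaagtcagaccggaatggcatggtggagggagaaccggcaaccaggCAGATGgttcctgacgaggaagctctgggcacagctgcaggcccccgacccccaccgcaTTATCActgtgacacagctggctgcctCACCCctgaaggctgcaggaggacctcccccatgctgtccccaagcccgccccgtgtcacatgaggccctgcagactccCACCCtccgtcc

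A GATA motif stood in 4 of the 8 windows, against 30.2% of 27025 RefSeq windows of the same 300 bases: TGATAA in Klf1, Gfi1b and Cbfa2t3, beginning 80, 120 and 118 bases before the start, and AGATAA in Tal1 at 205 bases. The windows of E2f2 and Ldb1, which rose with wildtype GATA1, held none of the 4 GATA motifs. The E-box CAGATG stood in the windows of Klf1, Tal1, Cbfa2t3 and E2f2, that is 4 of 8 against 17.3% of all windows, with 2 matches in E2f2. The Klf1 match begins 59 bases before the RefSeq start and runs past the printed end. The general E-box CANNTG, which includes CAGATG, stood in 6 of 8 windows against 72.1%. CACCC stood in 8 of 8 windows against 56.8%, and E2f2 held 5 matches of it, of which 3 form the run GGGTGGGTGGGTG. The E2F motif TTTCCCGC stood in Gfi1b (1.11% of all windows) and TTTGGCGC in E2f2, after the start (0.537%). These matches are letters in a window, and binding was not measured.

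Relatives of the 10 regulators were grouped into 6 lists. Among 12 tested relatives of the TAL1 complex, wildtype GATA1 raised 1 and lowered 4, against 11.4% and 11.9% of all genes. Ssbp2, whose product stabilises LDB1, rose from 79.1 to 109 CPM (log2 fold change 0.46 ± 0.10, adjusted p = 0.00583, edgeR). The E protein gene Tcf4 fell from 30.5 to 16.1 CPM (-0.93 ± 0.19, adjusted p = 0.00403), and the ETO family gene Cbfa2t2 by 0.58, Lmo4 by 0.60 and Cbfb, named after its values were seen, by 1.39 on the log2 scale. The count of 4 was 2 without wildtype replicate 1, wildtype replicate 2 or empty vector replicate 2. With the mutant, Tcf4 (0.97) and Cbfa2t2 (0.51) were higher and Ssbp2 (-0.43) lower than with the wildtype. The count of 2 higher was 1 without wildtype replicate 1, 4 without empty vector replicate 1 or 3, and 7 with mutant and wildtype paired by number.

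Of 29 tested chromatin cofactors, 5 fell with wildtype GATA1 and 0 rose in edgeR, against 11.9% and 11.4% of all genes. At an unadjusted p under 0.05 there were 9 in edgeR, against 36.5% of all genes, and DESeq2 called 4 lower and 0 higher. Chd4, the NuRD remodelling ATPase, fell from 184 to 125 CPM (-0.55 ± 0.15, adjusted p = 0.0167, edgeR). The histone methyltransferase gene Ehmt2 fell by 0.71, Rbbp7 by 0.45 and Rcor2 by 0.82 on the log2 scale. The count of 5 was 2 without wildtype replicate 1 or 2 and 3 without empty vector replicate 2. Chd4 at 234 CPM was also among 8 cofactors, against 13.2% of all genes, that were higher with the mutant than with the wildtype (0.90 ± 0.15, adjusted p = 0.000863), with Ehmt2 (0.82), Rbbp7 (0.37) and Smarca4 (0.56). That count of 8 was 2 without mutant replicate 1 or 2, 3 without wildtype replicate 1, 4 without wildtype replicate 2 and 14 in the paired fit.

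Mafk, the small Maf gene whose product pairs with NFE2, rose from 52.6 to 105 CPM with wildtype GATA1 (0.99 ± 0.11, adjusted p = 2.968e-05, edgeR) while Nfe2 was not called. Mafk stood at 62.7 CPM with the mutant, lower than with the wildtype (-0.74 ± 0.11, adjusted p = 0.000369). Its relative Bach1, a repressor partner of small Maf proteins, was the other of 2 called among 5 tested relatives, against 23.3% of all genes with wildtype and 25.9% between mutant and wildtype (0.76 with wildtype, adjusted p = 0.0360; -0.86 for mutant against wildtype, adjusted p = 0.0194). The Bach1 wildtype call was lost without mutant replicate 2, wildtype replicate 1 or 3, or any empty vector replicate, and its mutant call without mutant replicate 1 or 2 or wildtype replicate 1 or 3.

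Of 11 tested KLF and Sp relatives, 2 rose and 2 fell with wildtype GATA1, close to the 11.4% and 11.9% of all genes. Klf3, a CACCC-binding repressor that KLF1 is known to activate, rose from 12.1 to 28.1 CPM (1.22 ± 0.26, adjusted p = 0.00434, edgeR), and Klf16 rose by 0.65 on the log2 scale. Klf10 fell by 0.69 and Klf6 by 0.54; the Klf6 call was lost without mutant replicate 1, wildtype replicate 1 or 2, or empty vector replicate 2 or 3. Mutant against wildtype gave -1.44 for Klf3, -0.97 for Sp4 and 0.58 for Klf10, the 3 that were called. Sp4 was lost without mutant replicate 1 or 2 or wildtype replicate 3, and Klf10 without wildtype replicate 1.

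The other 12 genes of the E2F, DP and pocket protein families, all tested, held 1 call with wildtype GATA1, against 23.3% of all genes called in either direction. The pocket protein gene Rbl2 had a log2 fold change of -0.40 (adjusted p = 0.0371, edgeR), a call that was lost in 13 of 20 alternatives and without any 1 of mutant replicates 1 and 2, wildtype replicates 1 and 2 and empty vector replicates 1 and 2. Rbl2 was also the only one called between mutant and wildtype (0.41, adjusted p = 0.0310), and not without mutant replicate 1 or 3, wildtype replicate 1 or 2 or empty vector replicate 2. In the paired fit of mutant and wildtype, 3 of these genes were called higher and 4 lower.

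Among 17 tested regulators of erythroid progenitors and maturation, 4 rose and 6 fell with wildtype GATA1, against 11.4% and 11.9% of all genes. Sox6, a partner of BCL11A at globin genes, rose from 14.4 to 31.9 CPM (1.15 ± 0.17, adjusted p = 0.000269, edgeR). Myb, a progenitor factor, fell from 82.0 to 37.1 CPM (-1.14 ± 0.14, adjusted p = 7.324e-05), and Stat5a, which acts below the erythropoietin receptor, from 304 to 114 CPM. Stat5b fell by 0.58 on the log2 scale. The count of 4 was 2 without wildtype replicate 1 or empty vector replicate 1 or 2. Between mutant and wildtype, 7 of the 17 were higher with the mutant and 2 lower, against 13.2% and 12.7% of all genes. Myb stood at 69.2 CPM with the mutant (0.90 ± 0.14), with Stat5a at 1.51, Prdm1 at 1.89 and Stat5b at 0.56 on the log2 scale. Prdm1 was low, at 3.59 CPM with the mutant and 0.954 CPM with the wildtype.

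For mutant against empty vector, no relative in any of the 6 lists was called by edgeR or DESeq2. At an unadjusted p under 0.05 in edgeR there were 2 of the 12 TAL1 complex relatives, 3 of the 29 cofactors and 1 gene in each of the other 4 lists, against 12.9% of all genes. Without empty vector replicate 3, 1 cofactor was called higher, and 1 TAL1 complex relative and 1 E2F relative lower.

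**Figure D4:**
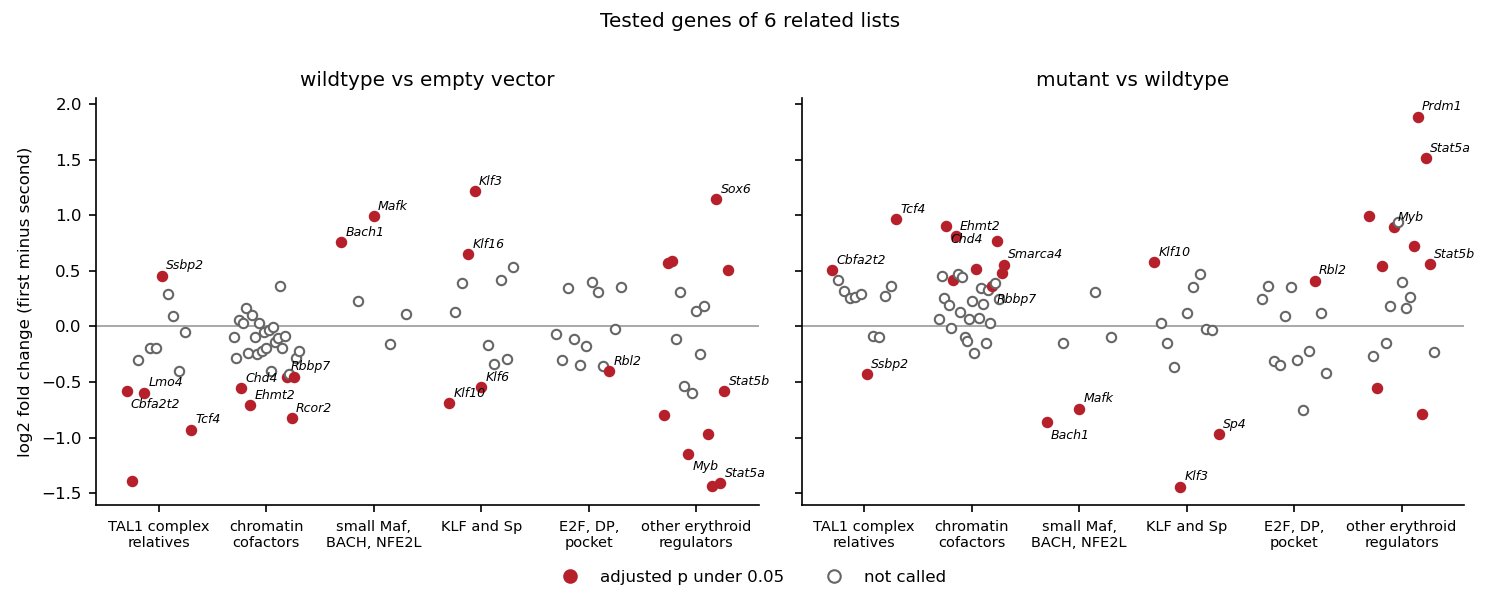
Log2 fold change (y axis) of each tested gene of the 6 lists for wildtype against empty vector (left) and mutant against wildtype (right); filled points passed an adjusted p under 0.05 in edgeR and names are given for up to 4 called genes a list. Mafk, Bach1 and Klf3 lie above 0 on the left and below 0 on the right, and Tcf4, Chd4, Ehmt2, Myb and Stat5a the reverse.

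The genes most alike in profile were found for the 4 regulators called with wildtype GATA1, by the root mean square difference of centred log2 CPM over 9 libraries among 8108 genes. For Klf1 they were Pklr, the red cell pyruvate kinase gene, and Apeh, both at 0.0821. Pklr averaged 138 CPM in the empty vector group, 185 CPM in the mutant group and 370 CPM in the wildtype group. For E2f2 they were Eif2ak1 (0.0633), the heme-regulated eIF2α kinase gene, and Ampd3 (0.0952), the erythrocyte AMP deaminase gene. Eif2ak1 averaged 84.6, 110 and 222 CPM in the same order, and Ampd3 47.2, 59.6 and 120 CPM. For Ldb1 they were Epn1 (0.101) and Rnf167 (0.111), and for Tal1 Trmt44 (0.0921) and Slc15a4 (0.102). Neither Trmt44 nor Slc15a4 was called for wildtype against empty vector in edgeR.

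Libraries of 1 group differed in how levels over all genes followed GC content. Slopes of the log2 CPM deviation on GC content and on exon length were fitted together. Per 10 points of GC content the slope was -0.400, -0.185 and 0.193 in empty vector replicates 1, 2 and 3. It was 0.280, 0.254 and -0.0258 with the mutant, and 0.0589, 0.0418 and -0.216 with the wildtype. Per doubling of exon length the slope was -0.0740, 0.0542 and 0.0733 with the empty vector. It was 0.0709, 0.0551 and 0.0985 with the mutant, and -0.0917, -0.183 and -0.00295 with the wildtype. Every mutant length slope lay above every wildtype length slope. In empty vector replicate 3, 9 of the 10 regulators stood above their level in replicate 1, against 50.2% of all tested genes, with ratios of 2.10 for Zfpm1, 1.76 for Cbfa2t3 and 1.24 for Klf1, down to 0.726 for Lmo2. With offsets for GC content and gene length, the mutant values against the empty vector were 0.24 for Klf1, 0.29 for Tal1, 0.23 for Cbfa2t3, 0.17 for Ldb1 and 0.26 for E2f2 on the log2 scale. The wildtype values under the same offsets were 1.08 for Klf1, 1.32 for E2f2 and 0.95 for Ldb1. The part of GC content and gene length in the differences was not tested beyond these offsets.

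**Figure D5:**
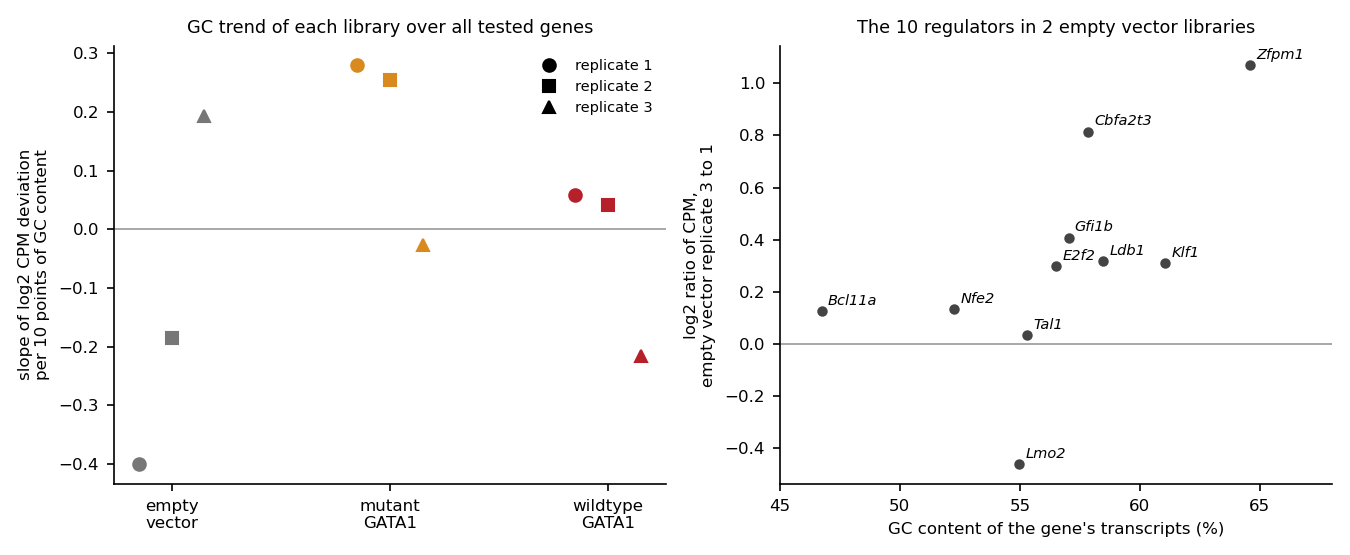
Left: slope of log2 CPM deviation on GC content (per 10 points), fitted together with exon length, in each of the 9 libraries. Right: log2 ratio of CPM in empty vector replicate 3 to replicate 1 (y axis) of the 10 regulators against the GC content of their transcripts in percent; Zfpm1 is highest and Lmo2, the only one below 0, is lowest.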

How the data were processed

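Per the labels' protocols, cDNA was made with Smart-seq2, which keeps no strand, and was indexed by a Nextera-based method. The authors deposited raw counts of reads per gene; STAR and the builds GRCm38.p4 and hg19 are named in the submitters' processing notes, while the sources used here do not give the counting tool or the annotation. Of 27999 rows, 27998 were mouse genes, and human GATA1 was left out of the fit. The test used edgeR 4.0.16 under R 4.3.3 (TMM factors, filterByExpr, quasi-likelihood test, 1 mean per group over all 9 libraries, 6 residual degrees of freedom), with Benjamini-Hochberg adjustment over 9978 genes in each comparison. SE were derived from the F-statistic and are approximate. DESeq2 1.42.0 was an alternative. The test was checked on simulated counts.

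The genes and lists were chosen with earlier results of these data known. The text names the 10 regulators in every comparison, up to 4 called genes of each list by smallest p, and the 2 genes of most alike profile. Of 20 alternatives, 3 were added after seeing the data: the replicate block within the 6 libraries compared, offsets for GC content and length, and both together. Exon lengths, GC content and coordinates came from GENCODE M21 (GRCm38), which gave GC content for 9658 tested genes (96.8%).

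The sources used here do not pair the replicates. Same-numbered mutant and wildtype libraries deviated together (correlations of 0.171, 0.286 and 0.533), and their numbers were taken to pair them on that ground alone. Libraries of different number were not compared in this way. Same-numbered empty vector libraries did not deviate together with either group (-0.202 to -0.435). Mutant replicates 1 and 2 differed least (chi-square per gene 2.20, other pairs of a group 15.0 to 55.5), but by more than sampling noise, and were kept apart. Whether these 2 libraries share a culture is not given, so the mutant SD may understate the spread between cultures.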

Additional observations from a re-analysis of the deposited data

How the results depend on the processing

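The calls of Klf1, E2f2 and Ldb1 for wildtype against empty vector, and of these and Cbfa2t3 for mutant against wildtype, remained in all 20 alternatives. Leaving out 1 library gave, for wildtype against empty vector, 3 to 5 regulators higher and 0 to 1 lower (all genes 732 to 1614 and 655 to 1641). For mutant against empty vector it gave 0 to 3 and 0 to 1 (all genes 5 to 227 and 2 to 610), and for mutant against wildtype 1 to 1 and 3 to 4 (all genes 693 to 1581 and 778 to 1577). For mutant against empty vector, where all 9 libraries gave 21 genes higher and 6 lower, counts were 119 and 296 with no filter, 63 and 39 with DESeq2, 12 and 2 with a replicate block, 9 and 2 with mutant replicates 1 and 2 summed, 39 and 19 with GC and length offsets, and 86 and 85 with block and offsets; library totals alone gave 3 lower. Summing those replicates gave 779 higher and 772 lower for mutant against wildtype (1313 and 1267 in the reported fit). The cause of these shifts was not tested.

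Pairing mutant and wildtype by number within their 6 libraries gave 2323 genes and 1 regulator higher and 2417 genes and 4 regulators lower. With offsets added, it gave 2265 genes and 1 regulator higher and 2082 genes and 5 regulators lower. A replicate block over all 9 libraries lost Lmo2 (adjusted p = 0.0561, edgeR). For wildtype against empty vector, whose same-numbered libraries did not deviate together, the block within 6 libraries gave 723 higher and 709 lower. Offsets gave 1793 lower there.

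Direction changed only where a regulator was not called. For wildtype against empty vector, Zfpm1 was -0.0462 with library totals and -0.208 to 0.273 when 1 library was left out, with negative values without wildtype replicate 3 (-0.00467) or empty vector replicate 1. Lmo2 was -0.0334 with offsets, -0.0360 with block and offsets and -0.0315 to 0.224 by library left out, negative without empty vector replicate 3. Nfe2 was -0.0242 with library totals, -0.0228 with offsets, -0.0343 with block and offsets and -0.0290 to 0.215 by library left out, negative without wildtype replicate 2. For mutant against empty vector, Nfe2 was -0.00127 with offsets and -0.0273 to 0.10 by library left out, negative without mutant replicate 2 (-0.00394) or empty vector replicate 2. For mutant against wildtype, Nfe2 was 0.0718 with library totals, 0.0215 with offsets, 0.0316 with block and offsets and -0.181 to 0.0605 by library left out, positive without mutant replicate 3 (0.0200) or wildtype replicate 2. Gfi1b was 0.0563, 0.0139 and 0.0303 in those 3 settings and -0.0973 to 0.0247 by library left out, positive without mutant replicate 3. Bcl11a was 0.0477 with library totals and -0.155 to 0.0452 by library left out, positive without mutant replicate 2 (0.00345) or wildtype replicate 3. Library totals alone moved the median of all genes to -0.13 for wildtype against empty vector and to 0.10 for mutant against wildtype.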
